A study of Mus musculus with 2 samples.

Results

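The BCL2 family sets whether a cell lives or dies by the mitochondrial route, and 10 of its genes were described in chromatin of mouse blood neutrophils. The set was fixed by name: the survival genes Mcl1, Bcl2, Bcl2a1a, Bcl2a1b, Bcl2a1d and Bcl2l1, the BH3-only death genes Bcl2l11 and Bid, and the pore-forming death genes Bax and Bak1. All 10 matched 1 gene each among the 21911 protein-coding genes of the annotation (GENCODE M21). Open chromatin had been mapped by ATAC-seq, in which a transposase cuts and tags accessible DNA, in 2 libraries of 50000 cells each, replicates 1 and 2 of a single group. The cells were labelled as neutrophils of peripheral blood from adult C57BL/6J mice aged 5 to 6 weeks, with no treatment named and sex not collected. Each replicate had its own biosample record but both had the same donor record, and the labels named no sorting step and no number of mice. There was no second condition, so every value below is a description over 2 libraries and no test between groups was possible.

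Proteins of this family share short BCL2 homology motifs. Survival members such as MCL1, BCL2, BCL-XL (from Bcl2l1) and A1 (from the Bcl2a1 genes) hold the pore formers BAX and BAK in check. BH3-only proteins such as BIM (from Bcl2l11) and BID relieve that hold or activate the pore formers, after which BAX and BAK open the outer mitochondrial membrane and cytochrome c leaves to start the caspase cascade. Mature neutrophils are short-lived cells, and MCL1 and A1 are the members best known for prolonging their life.

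Regions of 2 kinds were assigned to each gene from the authors' peak lists. A promoter region overlapped 1 kb on either side of any annotated start site, and a distal region had a summit up to 50 kb from the gene's 5′-most start and more than 1 kb away from every start. The main list of each replicate was thresholded by the irreproducible discovery rate (IDR), a measure of how well peaks repeat, and held 27709 merged regions in replicate 1 and 14548 in replicate 2. A gene is called open where it had a promoter region in the IDR list of both replicates. The strength of a region is the authors' signal value, a score per peak whose scale the labels do not define, so it is read against other peaks of the same list. Means over the replicates only set the order of the genes, since promoter values are higher as a whole in replicate 2. No read counts were used, and the depth of each library is unknown.

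The label was checked against marker genes. In replicate 1, 9 of 10 neutrophil markers had a promoter region, with Ly6g the exception, but in replicate 2 only S100a9 and Mmp8 did. B cell markers were listed at 6 of 6 promoters in replicate 1 and 4 of 6 in replicate 2, T cell markers at 3 of 6 and 1 of 6, and natural killer cell markers at 2 of 4 and 0 of 4. None of 4 monocyte or 4 erythroid markers had a promoter region in either IDR list, and of 4 platelet markers 1 did, in replicate 1. Of all protein-coding genes, 47.1% had a promoter region in replicate 1 and 40.3% in replicate 2. In replicate 2 the neutrophil markers, 2 of 10, were below that share and the B cell markers, 4 of 6, above it. The authors also made a conservative list from both replicates, with a promoter region at 46.7% of all protein-coding genes. It held one at 8 of 10 neutrophil, 6 of 6 B cell and 3 of 6 T cell markers. Of natural killer cell markers it held 2 of 4, and of monocyte markers 1 of 4. The lists thus hold regions of lymphocyte genes beside those of neutrophils. The part of lymphocytes in the values of the BCL2 family was not tested.

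The sequences under several of these regions are shown first, because the descriptions of strings below refer to them. Each is read 5′ to 3′ on the strand of the gene it is named for, from GRCm38 (mm10), with the strings named beside it in capitals. At Mcl1, the strongest distal region of the whole set in replicate 1 (chr3:95645471-95645571, gene on the plus strand) lay in intergenic DNA and held the CCAAT string of NF-Y on its reverse strand at 2 places in the 101 bases around its summit. The next region towards the gene (chr3:95650757-95650857) held the AP-1 string TGANTCA, the PU.1 and ETS string GAGGAAGT and CCAAT together.
Mcl1 −13.3 kb: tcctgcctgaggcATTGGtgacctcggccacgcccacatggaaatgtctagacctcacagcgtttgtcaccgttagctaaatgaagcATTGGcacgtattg
Mcl1 −7.98 kb: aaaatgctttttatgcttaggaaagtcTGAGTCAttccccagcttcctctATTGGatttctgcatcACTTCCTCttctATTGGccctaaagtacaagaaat

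Bcl2l11 had 2 promoter regions, and the stretch before its first start site (chr2:128125937-128126037, plus strand) and the summit in its first intron (chr2:128127419-128127519) are shown because both held GGGCGG, the string of SP and KLF factors, and CCAAT.
Bcl2l11 first start site: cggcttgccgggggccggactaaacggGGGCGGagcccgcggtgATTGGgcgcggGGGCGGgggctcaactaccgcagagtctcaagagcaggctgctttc
Bcl2l11 +1.43 kb: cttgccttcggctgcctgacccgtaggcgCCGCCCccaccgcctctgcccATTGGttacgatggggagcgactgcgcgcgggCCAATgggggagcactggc

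Distal summits of Bcl2 (chr1:106735733-106735833, in an intron of Kdsr, minus strand) and Bak1 (chr17:27012098-27012198, in an intron of Ggnbp1, minus strand) are shown for a joined CCAAT and CTCF-like string (AGNNGGCA) and for the ETS string AGGAAGT, the latter on the reverse strand.
Bcl2 −21.5 kb: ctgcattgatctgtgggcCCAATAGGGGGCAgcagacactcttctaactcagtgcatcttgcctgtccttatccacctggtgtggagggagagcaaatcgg
Bak1 +16.9 kb: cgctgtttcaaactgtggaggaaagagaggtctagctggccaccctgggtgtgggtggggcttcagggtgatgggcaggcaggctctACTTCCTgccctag

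The 3 Bcl2a1 genes are near-identical copies on chromosome 9, and 2 short stretches show how alike their open regions are. The first is a promoter site of 30 bases (chr9:88956872-88956901 on the plus strand, chr9:89199181-89199210 on the plus strand and chr9:88731869-88731898 on the minus strand), with capitals where the string of EGR factors stands in copies b and d. That string, GCGTGGGCG, is present on the reverse strand in b and d and broken in copy a by a single substitution, T17C from a to b or d, counting from 1 at the 5′ end. All 3 copies hold GGGCGG on the reverse strand here, overlapping the capitals.
Bcl2a1a promoter: tttcacagacCGCCCATGCacataagtgac
Bcl2a1b promoter: tttcacagacCGCCCACGCacataagtgac
Bcl2a1d promoter: tttcacagacCGCCCACGCacataagtgac

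The second is 43 bases of the most distant upstream element (chr9:88938484-88938526, chr9:89179029-89179071 and chr9:88746873-88746915, same strands), with the CTCF-like string in capitals. Copies a and b were identical over it, and copy d differed from both by G30A, counted in the same way.
Bcl2a1a −18.4 kb: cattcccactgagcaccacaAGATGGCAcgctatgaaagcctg
Bcl2a1b −20.2 kb: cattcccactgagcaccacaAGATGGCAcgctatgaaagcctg
Bcl2a1d −15.0 kb: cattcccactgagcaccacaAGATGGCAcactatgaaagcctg

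All 10 genes were open. Each had a promoter region in the IDR list of both replicates and in the conservative list that the authors made from both, against 39.8% of all protein-coding genes open in both. CpG-rich promoters are open in many tissues, so the count was also read by promoter class, where CpG-rich means an observed to expected CpG ratio of 0.6 or more with a GC fraction of 0.5 or more within 500 bases of the 5′-most start. Mcl1, Bcl2, Bcl2l1, Bcl2l11, Bid and Bax were CpG-rich, and 6 of 6 were open beside 66.8% of that class. Bcl2a1a, Bcl2a1b, Bcl2a1d and Bak1 were not, and 4 of 4 were open beside 18.2% of that class, although 3 of these are copies of one another. With the 5′-most start site alone, 9 of 10 were open beside 36.5% of all genes, and Bcl2 was the exception.

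Open did not mean strong. The signal value of the highest promoter region was below the median of all regions at protein-coding promoters, 11.2 in replicate 1 and 13.2 in replicate 2, at 9 of 10 genes in replicate 1 and at 10 of 10 in replicate 2. Bcl2a1a in replicate 1 was the only value above it. Below the lower quartile of promoter regions were 3 of the 10 in replicate 1, 6 in replicate 2 and 3 in the conservative list. When only peaks at or above the median signal value of their whole list were kept, Mcl1, Bcl2a1a and Bcl2l1 still had a promoter region in both replicates, 3 of 10 beside 30.4% of all genes, a share close to the background.

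**Figure D1:**
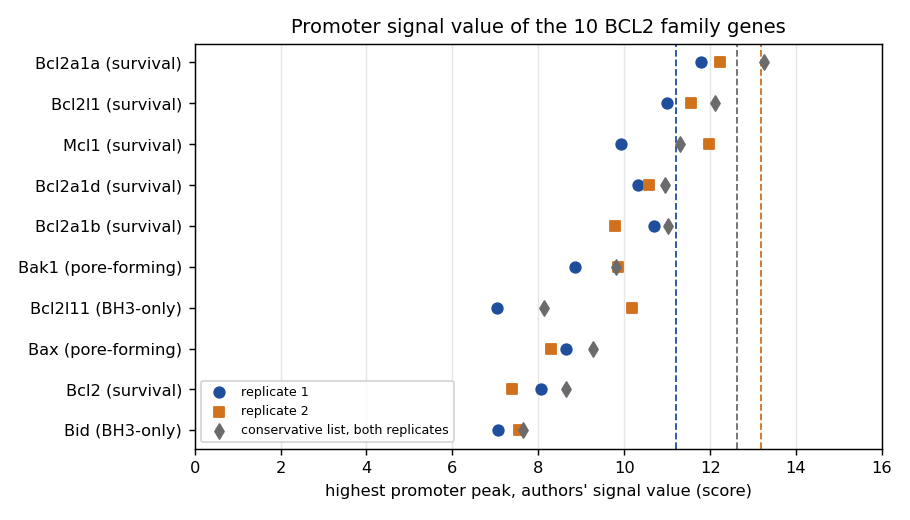
The authors' signal value (a score, x axis) of the highest promoter region of each gene, ordered by the mean of the replicates, with circles for replicate 1, squares for replicate 2 and diamonds for the conservative list; dashed lines in the same colours are the medians of regions at protein-coding promoters in each list. Replicate values run from 7.03 at Bcl2l11 to 12.2 at Bcl2a1a, and the only symbols right of their own line are those of Bcl2a1a in replicate 1 and the conservative list.

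Among the survival genes, Bcl2a1a, which encodes a copy of A1, had the highest promoter value, 11.8 in replicate 1 and 12.2 in replicate 2 (mean 12.0 ± 0.313, SD, n = 2). Bcl2l1, the gene of BCL-XL, followed with 11.0 and 11.6, and Mcl1 with 9.93 and 12.0. The other A1 copies, Bcl2a1d and Bcl2a1b, had 10.3 and 10.6, and 10.7 and 9.79. Within its list, Bcl2a1a was at the 54.5th percentile of promoter regions in replicate 1 and the 42.0th in replicate 2. For Bcl2a1b these were 45.8 and 20.9. Because values are higher as a whole in replicate 2, an SD over the replicates, here and below, does not measure their agreement. The values of Bcl2a1a stood above both of Bcl2l1, whereas Bcl2l1, Mcl1, Bcl2a1d and Bcl2a1b each overlapped the next in order. Bcl2, the founding survival gene of the family, had 8.06 and 7.39, the lowest of the 6 survival genes in each replicate.

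Among the death genes, Bak1 had 8.86 in replicate 1 and 9.85 in replicate 2, and Bax had 8.64 and 8.30. Bcl2l11, the gene of BIM, had 7.03 at its first start site in replicate 1 and 10.2 at its internal region in replicate 2 (mean 8.61 ± 2.23, SD, n = 2). Bid had the lowest mean, with 7.06 and 7.56. The 6 survival genes and the 4 death genes overlapped in both replicates: the survival genes spanned 8.06 to 11.8 in replicate 1 and 7.39 to 12.2 in replicate 2, and the death genes 7.03 to 8.86 and 7.56 to 10.2. In replicate 1 Bcl2 was the survival gene within the range of the death genes, and in replicate 2 Bcl2l11 and Bak1 were above Bcl2a1b. The genes were chosen with these data known and the Bcl2a1 copies share sequence, so this order is a description.

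The order of the mean values was Bcl2a1a, Bcl2l1, Mcl1, Bcl2a1d, Bcl2a1b, Bak1, Bcl2l11, Bax, Bcl2 and Bid. Neighbours overlapped in their replicate values, taken as listed, except at 2 steps, Bcl2a1a to Bcl2l1 and Bax to Bcl2. Replicate 1 placed Bcl2l11 last, at the 15.7th percentile of its promoter regions, and replicate 2 placed Bcl2 last. Bcl2l11 was at the 24.3rd percentile in replicate 2. The same percentiles for Mcl1 were 39.7 and 39.9, the closest match between replicates, and for Bcl2 they were 24.0 and 5.68.

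The start sites themselves differed in how the open DNA was laid out. Bcl2l1 and Bcl2l11 each had at least 2 separate promoter regions in both replicates, 2 of 10 genes beside 3.89% of all. At Bcl2l1, whose annotation holds 9 start sites, the region at the 5′-most start had 11.0 and 11.6, and a second at +1.06 kb in an exon had 7.68 and 8.20. Another, at +0.616 kb, was listed in replicate 2 alone at 2.32, and in that list the region at the 5′-most start was split into separate pieces. At Bcl2l11 the region at the first start had 7.03 and 9.22 and the one at +1.43 kb, in an intron, had 6.76 and 10.2, so that the internal region was the stronger in replicate 2 and the weaker in replicate 1.

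Bcl2 was open by an internal region. Its listed promoter region in both replicates had its summit at +1.78 kb, in a Bcl2 exon, 685 bases from the nearest annotated start in the conservative list, with 8.06 and 7.39. The region at the 5′-most start, at −0.122 kb, had 6.70 in replicate 1 and was in the IDR list of that replicate and, at 7.03, in the conservative list. In replicate 2 it appeared only in the less strict pseudoreplicated list, at 6.40. Bid, which caspases cut to make its active form, had an extra region at an internal start site at +18.5 kb, at 5.83 in replicate 1 alone, which was in neither list of replicate 2 nor in the conservative list. The Bak1 promoter region, at +0.376 kb, lay within 1 kb of a start site of Ggnbp1 as well, and the Bcl2a1b promoter within 1 kb of one of Gm29094, so these regions cannot be given to 1 gene alone.

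Beyond the promoters, the 10 genes had 22 distal regions in replicate 1 and 8 in replicate 2. That is a mean of 2.2 per gene in replicate 1 beside 1.17 over all protein-coding genes, and of 0.8 beside 0.433 in replicate 2. Bcl2a1a, Bcl2a1b and Bcl2a1d gave 2, 3 and 3 of the regions in replicate 1 and 0, 3 and 1 in replicate 2. Matching elements of these near-identical copies are thus counted at each copy. At least 1 distal region in each replicate was found at 4 of 10 genes, Mcl1, Bcl2a1b, Bcl2a1d and Bak1, beside 27.7% of all. In replicate 1 alone, 8 of 10 had a distal region beside 51.4% of all, and the exceptions were Bcl2l1 and Bcl2l11. With stronger peaks only, the mean over the members and both replicates was 0.4, beside 0.381 over all genes. Distance does not show which gene a region acts on.

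**Figure D2:**
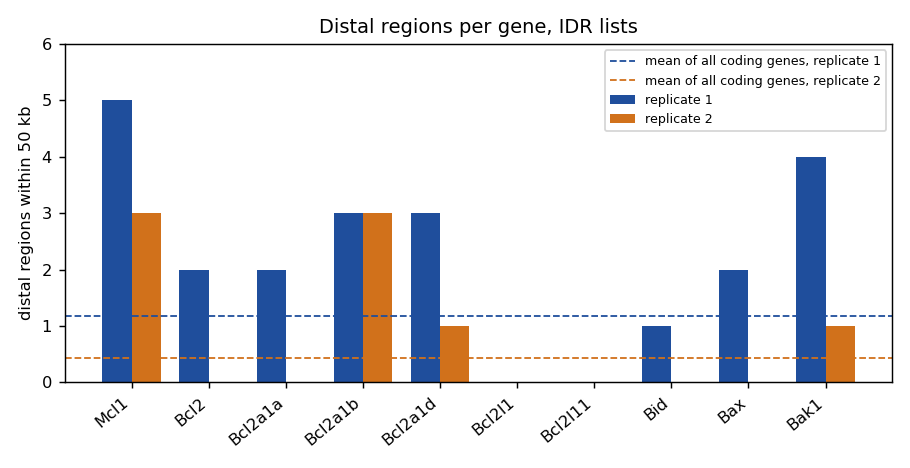
Number of distal regions within 50 kb of each gene (y axis) in the IDR list of replicate 1 (blue bars) and replicate 2 (orange bars), with dashed lines at the means of all protein-coding genes, 1.17 and 0.433. Mcl1 has the most in replicate 1, 5, and shares the most in replicate 2, 3, with Bcl2a1b, while Bcl2l1 and Bcl2l11 have none.

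Mcl1 had 5 distal regions in replicate 1, the most of the 10 genes, and 3 in replicate 2, the same as Bcl2a1b. In replicate 1, 95.1% of protein-coding genes had fewer, and in replicate 2, 96.2% did. The region at −13.3 kb had a signal value of 17.5 in replicate 1, at the 96.6th percentile of distal regions and above the 9.93 of the Mcl1 promoter itself. In replicate 2 the same region had 9.11, below the median of distal regions, 10.5, and below the promoter value of 12.0. The region at −7.98 kb, which holds the PU.1 and ETS, AP-1 and CCAAT strings printed above, was weaker in both replicates, 7.25 and 6.42. These values were at the 20.4th percentile of distal regions in replicate 1 and the 3.02nd in replicate 2. A region at +15.6 kb downstream, nearer to the start of Adamtsl4, had 8.44 and 9.87. Those at −6.42 kb and −4.94 kb had 4.99 and 5.84 in replicate 1 and were absent from the IDR list of replicate 2, whose pseudoreplicated list held them at 3.52 and 4.91. A further region at −25.7 kb was in the conservative list alone among the strict lists, at 7.39.

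**Figure D3:**
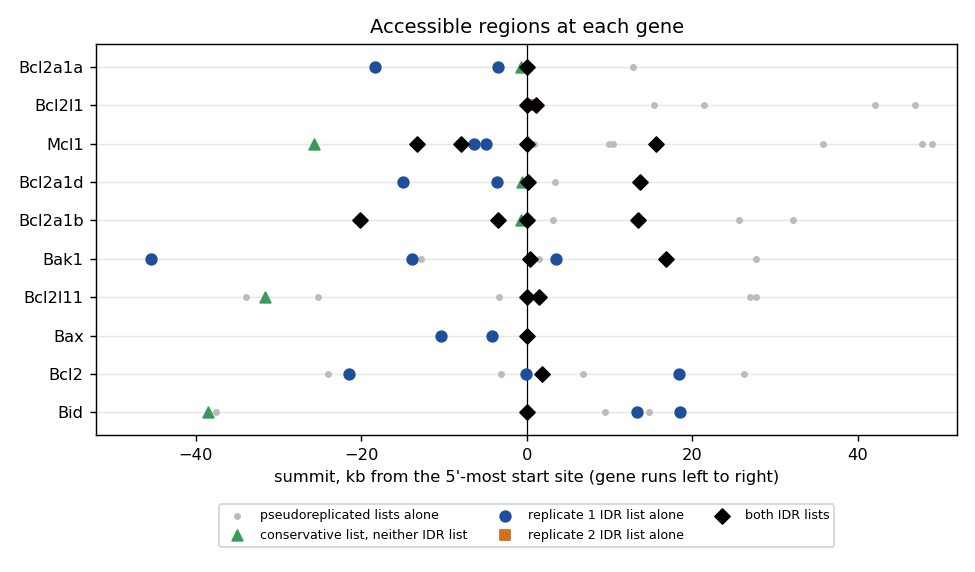
Summit positions of the regions of each gene in kb from its 5′-most start site (x axis), drawn so that each gene runs left to right, with the list each region was in shown by symbol. Diamonds, in both IDR lists, cluster at the start sites, and distal diamonds appear only at Mcl1, Bcl2a1b, Bcl2a1d and Bak1; the square of Bcl2l1, in replicate 2 alone, lies under its diamonds.

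Bak1 had 4 in replicate 1 and 1 in replicate 2. The shared one, at +16.9 kb in an intron of Ggnbp1, had 11.3 and 10.5, above the Bak1 promoter in both replicates. Those at +3.48 kb, −13.9 kb and −45.4 kb had 5.67, 6.25 and 6.37 in replicate 1 alone. Bax, on chromosome 7, had 2 upstream regions within Dhdh, in an exon at −4.17 kb with 8.71 and in an intron at −10.3 kb with 7.53, both in replicate 1 alone. Bcl2 had one at −21.5 kb with 9.46 and one at +18.3 kb with 8.96, both again in replicate 1 alone. The first was in the conservative list at 10.2, while the second was absent from it. Bid had 1 distal region in replicate 1, at +13.3 kb in its own intron, with 7.61. For Bcl2l11, which had none in either IDR list, the conservative list held 1 at −31.7 kb in an intron of Acoxl, with 7.14. It likewise held 1 of Bid at −38.5 kb in an intron of Mical3, with 6.92. The pseudoreplicated lists added 28 further distal regions and 2 promoter regions over the 10 genes that no stricter list held.

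Seen from replicate 1, promoter regions were shared between the replicates more often than distal ones. Of the 14 promoter regions of the 10 genes in replicate 1, 12 shared 1 base or more with a region of replicate 2, or 85.7% (95% Wilson interval 60.1% to 96.0%), beside 72.7% of all promoter regions. Of the 22 distal regions, 8 did, or 36.4% (19.7% to 57.0%), beside 35.0% of all distal regions. The intervals cover counting error only and treat the regions as independent. Those of the Bcl2a1 copies share sequence and others lie near the same gene, so the intervals may be too narrow. In the other direction 21 of 22 regions of replicate 2 overlapped one of replicate 1, or 95.5%, beside 97.9% of all regions. There the classes did not differ in this way, with 13 of 14 promoter regions and 8 of 8 distal regions shared. Over all regions those shares were 97.8% and 98.2%. Replicate 2 listed fewer distal regions in all, 5521 beside 15565 in replicate 1. Most distal regions missing from replicate 2 were still in its less strict list: 13 of the 14 seen in replicate 1 alone were there, at 3.52 to 8.35, and all but the Bcl2 region at +18.3 kb were also in the conservative list. Their values in replicate 1 ran from 4.99 to 16.2 and overlapped those of the 8 shared distal regions, 7.25 to 17.5.

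At the Bcl2a1 copies, regions were listed at matching places. The element at −18.4 kb in copy a, −20.2 kb in copy b and −15.0 kb in copy d had 11.2, 12.9 and 16.2 in replicate 1. In replicate 2 only that of copy b was in the IDR list, at 8.55, and those of a and d were in the pseudoreplicated list at 7.01 and 7.75. The element nearer the gene, at −3.58, −3.53 and −3.58 kb, had 7.95 in a, 8.03 in b and 8.98 in d in replicate 1, and 7.07 in b alone in the IDR list of replicate 2. The pseudoreplicated list of replicate 2 held the other copies of it at 6.09 in a and 7.23 in d, the latter above copy b. An element at −0.661 kb in a and b and −0.606 kb in d was in the conservative list alone among the strict lists, at 5.74, 4.52 and 4.50. At +13.5 kb in copy b, inside Mthfs, and at +13.6 kb in copy d, inside Mthfsl, an element had 9.75 and 9.14 in b and 9.56 and 9.04 in d in the 2 replicates. No 25-base stretch of that element was found within 60 kb of Bcl2a1a.

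**Figure D4:**
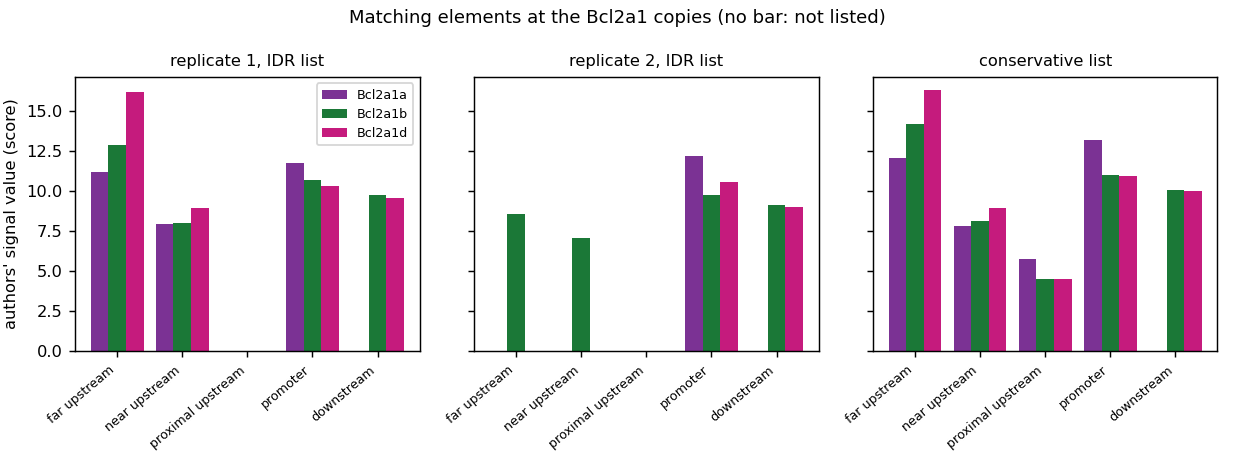
The authors' signal value (a score, y axis) of 5 elements (x axis, from far upstream to downstream of the gene) at Bcl2a1a, Bcl2a1b and Bcl2a1d in the IDR list of replicate 1, that of replicate 2 and the conservative list. The promoter is listed at all 3 copies in each panel, and upstream elements of the middle panel are those of Bcl2a1b alone, at 8.55 and 7.07.

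Counting for these copies depends on where reads could be placed. Over windows of 301 bases aligned to copy b, identity was 99.7% (a) and 99.3% (d) for the most distant upstream element, and 97.3% and 100% for the nearer one. It was 98.7% and 99.3% for the promoter and 99.7% for the downstream element of d. At the promoters, 64.4% of 50-base stretches of the region in copy a recurred exactly near another copy, as did 61.8% in b and 50.1% in d. For the nearer upstream region the shares were 36.1% in a and 100% in both b and d, and in b and d it was 100% for 100-base stretches too. The handling of reads with several equal placements by the authors is unknown here, so values of the copies are uncertain against each other. Whether each copy was open by itself is uncertain for the same reason. The part of this in the missing calls of copies a and d was not tested.

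The EGR string stood in 2 of 14 promoter regions of the 10 genes in each replicate, those of Bcl2a1b and Bcl2a1d, beside 0.445% of all promoter regions in replicate 1 and 0.565% in replicate 2. These are 2 copies of 1 site, so they count as 1 occurrence. In the RefSeq promoter table of GRCm38.p6, which matched all 10 genes, 0.612% of 32851 promoters held it, and among the 10 genes again only those of Bcl2a1b and Bcl2a1d. An NF-kB string, GGGNNTTTC, was found at the nearer upstream summits of the same 2 copies. That is 2 of 22 distal regions beside 1.59% of all in replicate 1. These too are 2 copies of 1 element, identical over the aligned 301 bases, so in replicate 1 they count as 1 occurrence. In replicate 2 the string was in 2 of 8 distal regions beside 1.70% of all and in 1 of 14 promoter regions beside 1.41%. The nearer upstream element of copy d was not in that IDR list, so these regions were not the same pair. The other NF-kB string searched, GGGANTTCC, was in 0 of the 22 distal regions of replicate 1 beside 0.777% of all.

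Of the 22 strings searched within 50 bases of the summits on both strands, 11 were found at 1 or more regions of the 10 genes. GGGCGG was the most frequent, in 7 of 14 promoter regions in replicate 1 beside 35.3% of all and in 10 of 14 in replicate 2 beside 44.5%. CCAAT was in 2 of 14 promoter regions in replicate 1, both of Bcl2l11, beside 24.3%, and in 4 of 22 distal regions beside 10.4%. The ETS string AGGAAGT, which lies within GAGGAAGT, stood in 4 of 22 distal regions beside 17.2%. It was found at Mcl1 −7.98 kb and at Bak1 +16.9 kb, +3.48 kb and −13.9 kb, and the Bak1 promoter held it as well. TTGCNNAA, for CEBP factors, was at the Mcl1 region at −4.94 kb and the Bid promoter. The CTCF-like string AGNNGGCA, added after the sequences had been seen, was in 7 of 22 distal regions in replicate 1 beside 21.1% of all. Of those 7, the Bcl2a1 copies gave 5, Bcl2 1 and Bak1 1. The 5 lay at the most distant and the nearer upstream elements of the copies, so they are not separate occurrences. In replicate 2 the string was in 2 of 8 distal regions beside 17.2% of all. The CTCF core string among the 22 searched, AGGGGGC, was in 2 of 22 distal regions in replicate 1 beside 7.15%. In replicate 2 it was in 0 of 8 beside 6.74%. These matches describe letters and not binding.

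The rest of the pathway gave a wider picture. Of 57 other genes in 5 lists, 37 were open in both replicates (64.9%) beside the 39.8% of all genes. Taking replicate 1 by itself, 45 had a promoter region beside 47.1% of all, taking replicate 2, 38 did beside 40.3%, and 11 had none in either IDR list. CpG-rich genes made up 35 of the 57, of which 27 were open beside 66.8% of that class, and 10 of the 22 others were open beside 18.2%. Among 16 other BCL2 family genes 10 were open. The highest values were those of Bcl2l13, 16.3 and 16.7, and of the mitophagy genes Bnip3, 14.4 and 16.5, and Bnip3l, 13.4 and 14.8, all above every promoter value of the 10 genes. Bcl2l10, Bcl2l14 and Bcl2l2 had no promoter region in either IDR list, though the conservative list held one of Bcl2l14 at 8.53. Bcl2a1c, the remaining Bcl2a1 copy, had 14.7 and 12.7, and was named after its values were seen.

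Downstream of the mitochondria, 11 of 13 genes of caspases and the apoptosome were open. Aifm1, the gene of apoptosis-inducing factor, had 22.4 and 20.5, Cycs, the gene of cytochrome c, had 19.9 and 22.5, and Apaf1, the scaffold of the apoptosome, had 16.2 and 19.3. Each exceeded the highest value of the 10 genes, 12.2. Of 7 inhibitors of apoptosis 4 were open, led by Birc6 at 12.6 and 17.6, Birc5 at 13.5 and 13.4 and Birc3 at 10.5 and 13.5. Naip5 had no promoter region in either IDR list.

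Death receptor genes had 3 of 10 open, and 7 of 10 had a region in replicate 1, beside the 39.8% and 47.1% of all genes. In the conservative list made from both replicates, 7 of 10 had one, beside 46.7% of all. Those open were Ripk1, a kinase of receptor complexes, at 11.8 and 11.6, the adaptor gene Tradd at 8.72 and 8.44, and Cflar, the gene of the caspase-8 inhibitor FLIP, at 8.69 and 7.70. Fasl, Ripk3 and Tnfrsf10b had no promoter region in either IDR list. Of 11 regulators of the family 9 were open, with the ubiquitin ligase genes Fbxw7 at 15.5 and 16.7, Huwe1 at 11.4 and 15.1 and Mdm2 at 12.5 and 13.4. FBXW7 and HUWE1 are ligases known to mark MCL1 for destruction.

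**Figure D5:**
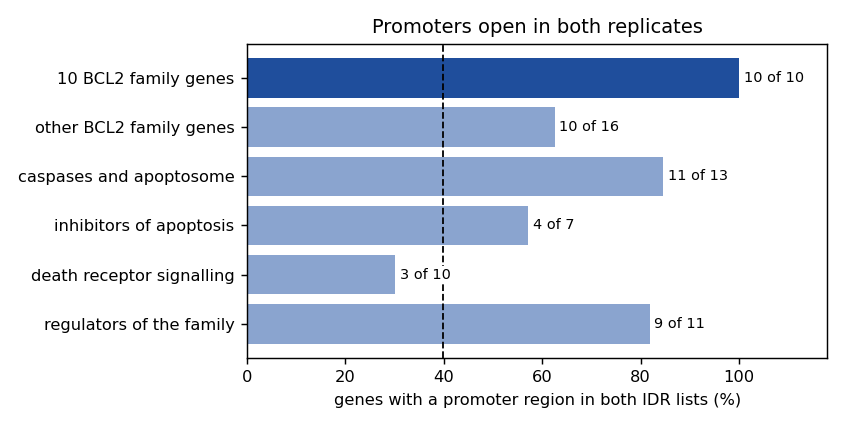
Share of genes with a promoter region in both IDR lists (x axis, percent) for the 10 BCL2 family genes and the 5 other lists, with the count beside each bar and a dashed line at the 39.8% of all protein-coding genes. Death receptor genes, 3 of 10, are the only list left of the line, though 7 of 10 had a promoter region in the conservative list.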

How the data were processed

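Peak lists of 2 ATAC-seq libraries were used, replicates 1 and 2 as the labels number them. Per the file headers, the lists are on mm10 and comprise IDR thresholded and pseudoreplicated peaks for each replicate and conservative IDR peaks for both together. The deposited signal value of a peak (column 7) is a score that the labels and file headers do not define, and the deposited −log10 p (column 8) is not printed. Not given in the sources used here were the aligner, the peak caller, their versions, any read shifting for the transposase and the handling of reads with several placements. Depth is unknown.

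Overlapping peaks of a list were merged, keeping the strongest summit and signal value. Coordinates count from 1, and no region ran past a chromosome end of GRCm38.p6. Start sites came from GENCODE M21. Promoter regions overlapped 1 kb on either side of any start site, and distal regions had summits up to 50 kb from the 5′-most one and over 1 kb from all. The 22 motif strings were searched within 50 bp of summits on both strands. Bcl2a1 windows of 301 bases were aligned with Biopython 1.88, and Python 3.11.15, pandas 2.3.3 and pysam 0.24.0 were used otherwise. Merging, assignment and motif search were tested on simulated data. The members and lists were chosen with earlier results of these data known. Named genes were all 10 members and, from each other list of the pathway, up to 3 open genes of highest mean signal and up to 3, in alphabetical order, with no promoter region in either IDR list. An item that this rule would name is not reported here.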

Additional observations from a re-analysis of the deposited data

How the results depend on the processing

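All 10 members were open under pseudoreplicated lists, beside 49.8% of all genes, and in the conservative list, beside 46.7%. The same 10 were open with a promoter of 2.5 kb (41.5% of all genes) and with summits within 1 kb (39.4%). They were also open without replicate 1 (40.3%) and without replicate 2 (47.1%). With the 5′-most start site alone 9 were open (36.5%), and with peaks at or above the median signal value 3 were (30.4%). Mean distal regions per member, 1.5 over both replicates beside 0.801 for all genes, were 4.15 (1.69) in pseudoreplicated lists, 2.4 (1.02) in the conservative list and 0.4 (0.381) with stronger peaks. They ranged from 0.8 to 2.2 when a replicate was left out, 0.8 being the value without replicate 1 and its 14 regions not shared. The median promoter signal value, 9.80, was 10.2 with the 5′-most start site alone, where Bcl2 gives no value, and the pseudoreplicated lists left it the same because they hold the same values for these peaks. Of member regions of replicate 1, 55.6% overlapped the IDR list of replicate 2 and 94.4% its pseudoreplicated list. Counts of other pathway genes (25 to 50, main 37) and of strings found (9 to 15, main 11) stayed within 1.5 times. The 25 pathway genes came with stronger peaks, beside 30.4% of all genes, and the 50 with pseudoreplicated lists, beside 49.8%. Unknown depth limits every absent call. No paired analysis was possible because there is 1 group.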
